A study of Rattus norvegicus with 2 samples.

Results

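Genes for the eukaryotic translation initiation factors (eIFs) were examined in the adrenal medulla of Sprague-Dawley rats during a hypoglycemic clamp, with or without a history of recurrent hypoglycemia (RH). A gene was a member if its symbol begins with Eif and a digit and it had a probe set annotated to that gene alone. Eif2ak3, which encodes the kinase PERK, was left out by the rule. This gave 48 genes of the 14217 genes measured, read by 74 of 31042 probe sets. RH rats (2RH30) had received intraperitoneal human insulin at 2 IU/kg, 2 times daily with a single injection on the last of 3 days, and control rats (2RS30) saline. Every rat was an adult male with vascular catheters, was fasted overnight, and was taken on day 4 at 30 min after its glucose reached the clamp target of 40 to 50 mg/dL, so both groups were hypoglycemic under insulin infusion when sampled. For each group, medulla RNA of 6 rats went as 1 pool onto 1 Affymetrix Rat Genome array. With 1 array a group no difference has a replicate check, no test was possible, and each value below is a difference between these 2 pools.

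Initiation brings the ribosome, the initiator tRNA and the mRNA together. eIF2 carries the initiator tRNA and is recharged with GTP by eIF2B, and phosphorylation of its alpha subunit by the eIF2 kinases blocks that exchange, which lowers general protein synthesis and favours mRNAs such as Atf4. eIF4F, built from eIF4E, eIF4G and eIF4A, binds the mRNA cap, and the eIF4E-binding proteins hold eIF4E away from eIF4G unless mTORC1 phosphorylates them. eIF3 joins the small ribosomal subunit to the mRNA, and eIF5B and eIF6 act on the large subunit.

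Where a gene had several probe sets, the one whose mean over both arrays was highest stood for it. Values are on the log2 scale, and a difference is 2RH30 minus 2RS30, so that 1 is a 2-fold difference. The arrays also differed as a whole. Values were spread more narrowly in 2RS30 (SD over probe sets 1.28) than in 2RH30 (1.57), the bioB spike-in controls differed by between -3.30 and -3.06, and with probe sets split into 20 bins by level, the dimmest bin had a median difference of -0.38 and the brightest 0.49. The median mean level of the initiation factor genes was 6.76, at percentile 78.0 of all genes, where this trend is positive. A level-adjusted difference is therefore given as well, in which the trend fitted by lowess was subtracted. The spread between probe sets of a gene serves as a yardstick for a single gene, with an SD of 0.87 at mean levels under 7 and 0.66 at higher levels, but neither animals nor pools enter it. Probe sets under the array median on both arrays are called dim, which applied to 7 of the 48 genes (Eif1a, Eif2a, Eif2d, Eif2s3y, Eif2b4, Eif2ak4 and Eif5a2). The medians were 5.50 in 2RS30 and 5.51 in 2RH30. A gene under the median on a single array was not called dim. Eif2b1, Eif2b2, Eif2b3, Eif2s1 and Eif4g3 were under it in 2RS30 alone, and Eif1ad, Eif1ax and Eif4e3 in 2RH30 alone. Of 12 chromaffin cell markers 11 were measured and none was dim, with a median level of 8.22 in 2RS30 and 9.04 in 2RH30. Of 12 adrenal cortex markers 9 were measured, with medians of 10.98 and 11.46 and none dim, so both pools gave signal for cortical transcripts. Both marker lists had positive medians, of 0.51 (level-adjusted 0.09) and 0.61 (level-adjusted 0.04), and the 9 macrophage markers had one of 0.89 (level-adjusted 1.03), with 4 of them 2-fold or more higher, 2 dim, and Csf1r (-0.77) and Ptprc (-0.71) lower in 2RH30. Over all genes, 11.5% were 2-fold or more higher. Of 7 Schwann and 7 endothelial markers 5 and 6 were measured, with medians of 0.09 and 0.34 (level-adjusted 0.18 and 0.32). The part of other cell types in the differences below was not tested. In bulk RNA, fewer cells of a type and less RNA per cell cannot be told apart.

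More initiation factor genes had a higher value in 2RH30 than a lower one. Of 48 genes, 35 were above 0 and 13 below, against 56.1% above 0 among all genes. A total of 13 were 2-fold or more higher in 2RH30, or 27.1%, where the share over all genes was 11.5%. The number 2-fold or more lower was 2, or 4.17%, against 9.62% of all genes. The median difference was 0.44, compared with 0.11 over all genes. Level-adjusted, the excess on the higher side was narrower at the median, 0.15 against 0.02. Above 0 were 28 of 48 genes, or 58.3%, near the 51.2% of all genes. Still, 11 genes were 2-fold or more higher (8.95% of all genes) and 1 was lower (9.31%). Eif3k and Eif4g1 were the genes no longer 2-fold higher, and Eif2s3y the gene no longer 2-fold lower. Among the 5590 genes with a mean level of 6 to 8, 13.9% were 2-fold or more higher and 3.52% lower as deposited, and the 27 initiation factor genes in that range held 7 and 0. Level-adjusted, the shares in that range were 7.12% and 7.44%, and the initiation factor genes held 5 and 0. The SD of the differences was 0.91 over the 48 genes and 0.83 over all genes. The members thus varied as widely among themselves as genes in general, and the complexes differed in their medians as described below.

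**Figure D1:**
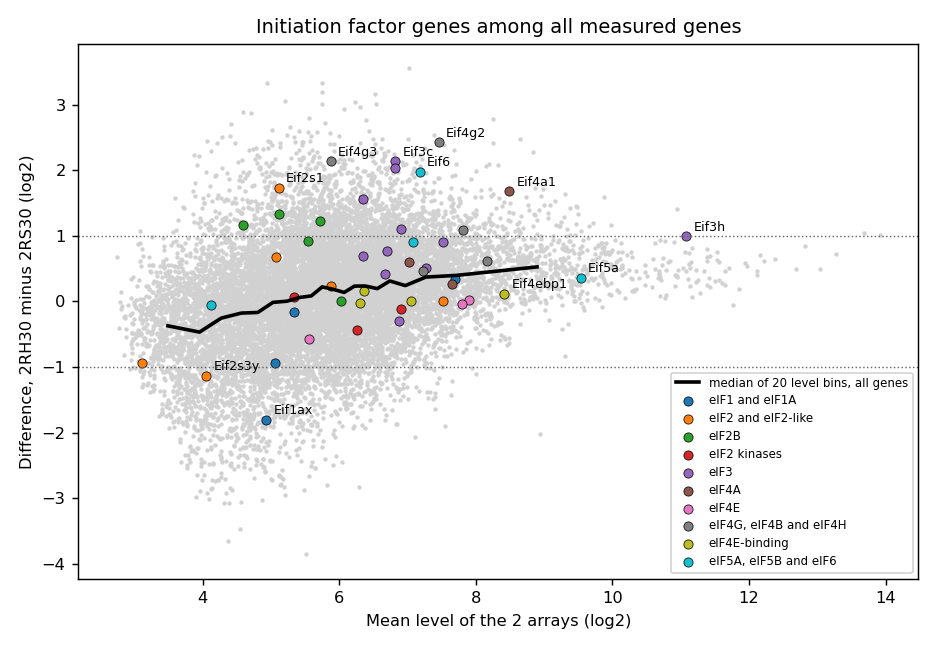
The 2RH30 value minus the 2RS30 value (log2, vertical) plotted on the mean level of both arrays (log2, horizontal) for all 14217 genes (grey) and the 48 initiation factor genes (coloured by complex). The black line joins the medians of 20 level bins and dotted lines mark a 2-fold difference, past which 13 initiation factor genes lie on the higher side and 2 on the lower.

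**Figure D2:**
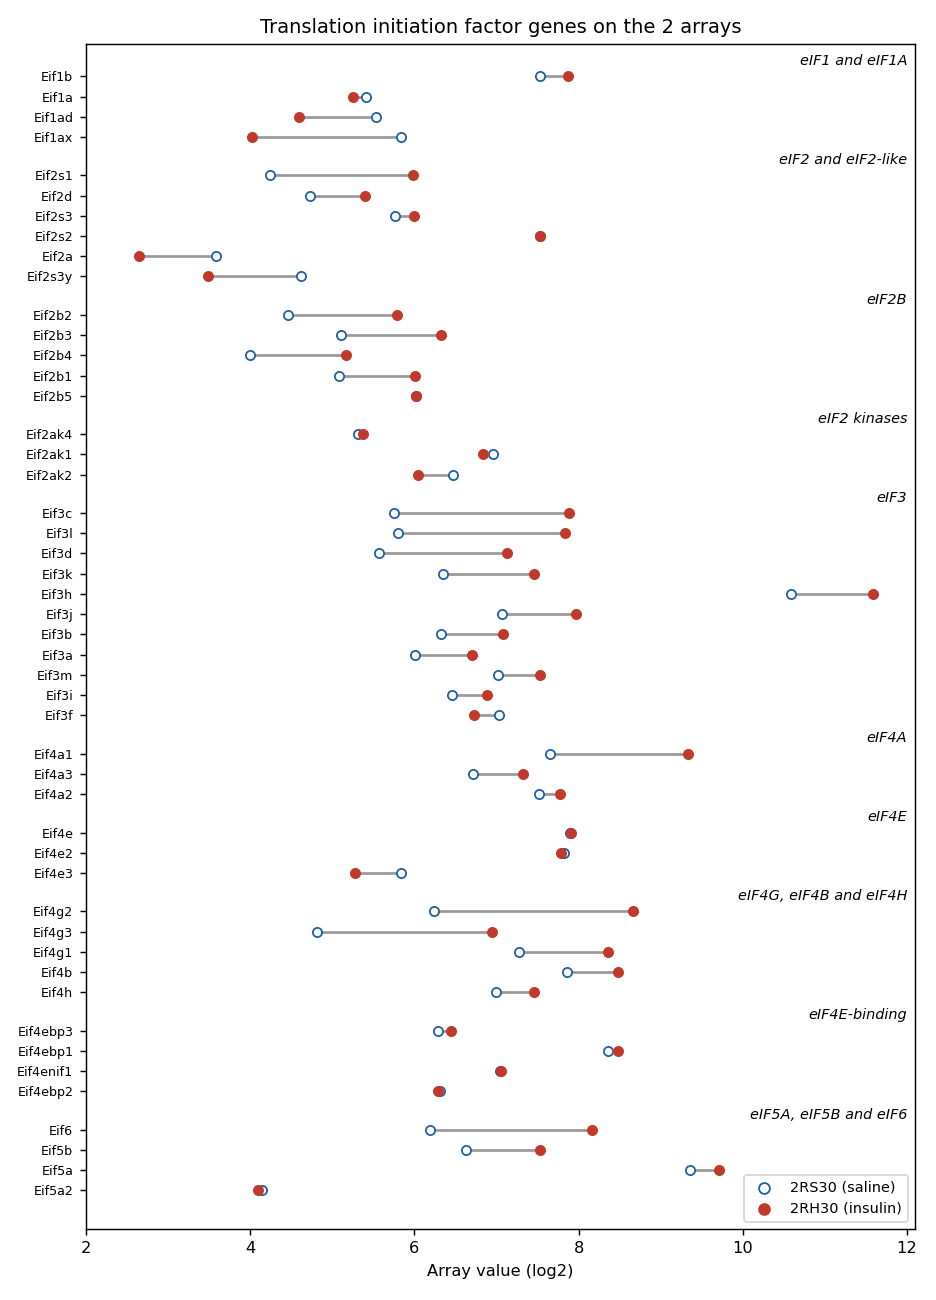
Values of the 48 initiation factor genes (log2, horizontal axis) on the 2RS30 array (open) and the 2RH30 array (filled), grouped by complex and ordered by difference. The filled points of eIF4G, of eIF3 other than Eif3f and of eIF2B other than Eif2b5 lie to the right of the open ones, and those of the eIF4E-binding group lie on or close to them.

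The eIF2B genes encode the exchange factor that reloads eIF2, and 4 of the 5 subunits had values higher by 0.93 to 1.34 in 2RH30. Eif2b2, the beta subunit, read 4.46 in 2RS30 against 5.79 in 2RH30, which differ by 1.34 (level-adjusted 1.40). The gamma subunit Eif2b3 went from 5.10 to 6.33, or 1.23 (level-adjusted 1.10). For the delta subunit Eif2b4 the values were 4.00 and 5.17, a difference of 1.17 (level-adjusted 1.44) from a dim probe set. The alpha subunit Eif2b1 read 5.09 and 6.01, or 0.93 (level-adjusted 0.84), just short of 2-fold. Eif2b5, the catalytic epsilon subunit, was at 6.02 and 6.03, and both of its probe sets gave a difference that rounds to 0 (0.0020 and 0.0084, level-adjusted -0.17 for the one with the higher level). The median of the complex was 1.17 and changed little with level adjustment, to 1.10. The trend was small at the mean levels of these genes, so the adjustment could move them little. Bin medians were -0.18 at a level of 4.57 and 0.18 at 5.92. The 4 subunits that were higher have 1 probe set each, so no second probe set bears on their differences. The spread between probe sets of 0.87 was taken from probe sets that were not dim, so it does not cover Eif2b4. Eif2b2 and Eif2b3 exceed it as deposited and level-adjusted, and Eif2b1 as deposited only. All 4 had a 2RS30 value under the median of that array, 5.50.

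The promoters of the eIF2B subunits and of Eif2s1, which encodes the subunit of eIF2 that the kinases phosphorylate, are shown because 5 of these 6 genes differed by 0.93 or more while Eif2b5 did not. Each run spans 100 bases before the start of the RefSeq promoter entry and the first 10 bases from it. It is written 5′ to 3′ on the strand of the gene (GRCr8 build), and capitals mark matches to the motifs searched. For Eif2b2 and Eif2s1 that start is the outer end of the gene. In RefSeq gene coordinates, the windows of Eif2b1 and Eif2b5 lie wholly inside the gene, and those of Eif2b3 and Eif2b4 largely so.
Eif2b1 (chr12:37686475-37686584, plus strand): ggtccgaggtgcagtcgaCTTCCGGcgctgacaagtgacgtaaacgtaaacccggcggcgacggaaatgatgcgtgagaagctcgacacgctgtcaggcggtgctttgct
Eif2b2 (chr6:110597879-110597988, plus strand): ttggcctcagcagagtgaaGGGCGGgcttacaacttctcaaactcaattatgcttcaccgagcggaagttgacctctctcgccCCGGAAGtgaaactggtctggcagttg
Eif2b3 (chr5:135728742-135728851, plus strand): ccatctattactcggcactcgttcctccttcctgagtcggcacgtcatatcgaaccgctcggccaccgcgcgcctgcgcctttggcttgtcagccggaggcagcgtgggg
Eif2b4 (chr6:30903139-30903248, plus strand): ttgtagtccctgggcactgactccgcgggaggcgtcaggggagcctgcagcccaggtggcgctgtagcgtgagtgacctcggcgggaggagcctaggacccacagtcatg
Eif2b5 (chr11:93908791-93908900, minus strand): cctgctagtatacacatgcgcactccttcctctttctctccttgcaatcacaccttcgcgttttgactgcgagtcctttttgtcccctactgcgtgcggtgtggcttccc
Eif2s1 (chr6:103405780-103405889, plus strand): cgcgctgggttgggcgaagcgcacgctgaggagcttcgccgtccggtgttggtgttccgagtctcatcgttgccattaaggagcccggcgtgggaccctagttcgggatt
The motifs searched on both strands were the cAMP response element TGACGTCA, the CARE bound by ATF4 as TGATGCAA, the E-box CACGTG, the GC box GGGCGG, the CCAAT box CCAAT, the ETS motif CCGGAAG, the NRF1 motif and the TATA box TATAAA, none of which contains another. In the windows printed, Eif2b1 and Eif2b2 had an ETS motif, Eif2b2 also a GC box, and the other 4 had no match. The window of Eif2b1 overlaps the gene Gtf2h3. Over whole RefSeq promoters of 300 bases, 44 initiation factor genes had an entry, among 11700 measured genes. The ETS motif was in 18 of them (40.9%, against 15.1% of the promoters of measured genes), the E-box in 9 (20.5% against 8.94%) and the GC box in 32 (72.7% against 57.5%). Among the 13 genes 2-fold or more higher in 2RH30, 4 held the ETS motif, 1 the E-box and 7 the GC box. The CCAAT box was in 13 of the 44 (29.5%, against 37.3%) and in 6 of the 13, the TATA box in 2 (4.55%, against 8.45%) and in 1, and the NRF1 motif in 1 (2.27%, against 1.62%), which is among the 13. CARE was found in Eif2s2 alone (1 of 44, against 0.615%) and the cAMP response element in none (against 2.85%). A start of C followed by 4 pyrimidines, the pattern of mRNAs under mTORC1 control, was annotated for Eif2a alone (2.27%, against 2.62%). This reads 1 annotated start per gene, so a missing match does not show that an mRNA lacks the pattern. These matches are descriptions of the letters and name no bound factor.

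Within eIF2 itself the 3 subunits differed unequally. Eif2s1 was at 4.25 in 2RS30 against 5.98 in 2RH30, which differ by 1.73 (level-adjusted 1.80), about 2 times the spread between probe sets. Unrelated genes such as Abcb9, Acsl3 and Adam4 had the same 2RS30 value as Eif2s1, which has 1 probe set. How far the pools differ in Eif2s1 is therefore unclear. Eif2s2, the beta subunit, had 7.53 on both arrays, and Eif2s3, the GTP-binding gamma subunit, 5.76 and 6.00. Eif2s3y, the Y-linked copy of the gamma subunit, read 4.62 and 3.48, a difference of -1.14 (level-adjusted -0.71) from a dim probe set. Eif2a and Eif2d encode factors that can deliver initiator tRNA without eIF2, and both were dim. Eif2a read 3.59 in 2RS30 and 2.65 in 2RH30, under the 5th percentile of each array (3.67 and 3.16), so the size of its difference of -0.94 is uncertain. Eif2d was at 4.73 and 5.40, or 0.67 (level-adjusted 0.75). The RefSeq annotation lists 3 pseudogene copies of Eif2s1, and whether its probe set also reads them was not examined.

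The eIF2 kinases, which stop the exchange by eIF2B, had small differences of either sign. Eif2ak1, the heme-regulated kinase HRI, read 6.96 and 6.84 in its brighter probe set (difference -0.12, level-adjusted -0.42) and 6.55 and 7.10 in the other (0.55, level-adjusted 0.26), so its probe sets do not go one way. Eif2ak2, the double-stranded RNA kinase PKR, went from 6.47 to 6.04 (-0.43, level-adjusted -0.63). Eif2ak4, the amino acid sensor GCN2, was dim at 5.31 and 5.38. Eif2ak1 and Eif2ak2 lay within the spread between probe sets, which was taken from probe sets that were not dim.

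The eIF3 complex is the largest measured here. Of its 11 measured subunits 10 were above 0, 4 of them by 2-fold or more, and the median difference was 0.90 (level-adjusted 0.49). Level-adjusted, again 10 were above 0 and 3 were 2-fold or more higher. Eif3c, a core subunit, read 5.75 in 2RS30 against 7.89 in 2RH30, which differ by 2.13 (level-adjusted 1.84). Its other probe set gave 5.63 and 6.94, or 1.30, and Eif3c was the only gene of the 19 with several probe sets in which all of them were 2-fold different in the same direction. Eif3l, a peripheral subunit, had 5.80 and 7.84 (2.04, level-adjusted 1.75) in the brighter probe set, and 5.98 and 6.29 (0.32) in the other. Eif3d, a subunit that can itself bind the cap, read 5.57 and 7.13 with 1 probe set, or 1.56 (level-adjusted 1.35). The fourth gene was Eif3k, at 6.35 and 7.45 (1.10, level-adjusted 0.79), with 0.27 in its second probe set. Eif3h stood just inside the threshold at 10.59 and 11.58 (difference 0.998, level-adjusted 0.43). Its other probe set differed by 0.26.

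The remaining eIF3 genes lay nearer to 0. Eif3j, a loosely bound subunit, differed by 0.90 in its brighter probe set and by -0.29 in the other. The scaffold subunits Eif3a and Eif3b differed by 0.69 and 0.76, with 1.24 in the second, lower probe set of Eif3a. That probe set was dim and read 3.27 in 2RS30, also the value of unrelated genes such as Acsm2 and Agtr1b, so its size is uncertain. Eif3m and Eif3i differed by 0.51 and 0.42 (level-adjusted 0.15 for each). Eif3f was the gene below 0, at 7.03 in 2RS30 and 6.73 in 2RH30 (-0.30, level-adjusted -0.60). In size, the differences of Eif3c and Eif3l exceeded those of 99.8% and 99.0% of the genes nearest in mean level (500 on each side), against 33.5% for Eif3f.

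Genes for the scaffold and helpers of eIF4F were all above 0, with a median of 1.08 (level-adjusted 0.65) over eIF4G, eIF4B and eIF4H. Eif4g2, which encodes the eIF4G-like protein DAP5, had the highest difference of the 48 genes, from 6.24 to 8.67 (2.43, level-adjusted 2.04). Its other 2 probe sets gave 0.27 and -0.16. Eif4g3, a second eIF4G scaffold, read 4.81 and 6.95 (2.13, level-adjusted 1.98), and its other probe set 5.80 and 5.61 (-0.18). The size of both genes thus rests on 1 probe set. Eif4g1, the main scaffold, had 4 probe sets that went one way, at 1.08, 0.58, 0.65 and 0.48. The first of these read 7.27 in 2RS30 and 8.35 in 2RH30 (level-adjusted 0.65). The probe set that differed by 0.65 read 6.09 in 2RS30, also the value of unrelated genes such as Aga and Ankh, so its size is uncertain. Eif4b, a cofactor of the eIF4A helicase, differed by 0.62, from 7.86 to 8.48 (level-adjusted 0.15), and by 2.19 in the other probe set. Eif4h, a related cofactor, had the lowest difference, from 6.99 to 7.45 (0.46, level-adjusted 0.11), with 0.38 in its other probe set.

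Among the eIF4A helicases, Eif4a1 read 7.65 in 2RS30 against 9.33 in 2RH30, which differ by 1.68 (level-adjusted 1.19). Its size exceeded that of 98.4% of the genes nearest in level. The probe set is the only one of the gene, and RefSeq lists 8 pseudogene copies. Eif4a2, the second helicase paralog, was at 7.52 and 7.78 (0.26, level-adjusted -0.15), and at 5.52 and 7.09 (1.57) in its other probe set. Level-adjusted, that probe set differed by 1.36. Eif4a3, which serves the exon junction complex, differed by 0.61, from 6.71 to 7.32 (level-adjusted 0.29).

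As deposited, Eif4e, Eif4e2 and the genes of the eIF4E-binding group had near-equal values on both arrays, and Eif4e3 was lower in 2RH30 within the spread between probe sets. Level-adjusted, all 3 cap-binding genes lay between -0.65 and -0.42. Eif4e, the cap-binding subunit, read 7.89 and 7.91 in its brightest probe set (0.02, level-adjusted -0.42), with 0.36 and 0.97 in the other probe sets, the latter dim. RefSeq lists 10 pseudogene copies of it, the most of any member. Eif4e2, a cap-binding paralog that represses translation, was at 7.82 and 7.79 (-0.04, level-adjusted -0.47), and Eif4e3, a further paralog, at 5.84 and 5.27 (-0.57, level-adjusted -0.65), with -1.56 in its other probe set. Eif4ebp1, an inhibitor of eIF4E, had 8.36 in 2RS30 against 8.48 in 2RH30, which differ by 0.12. The related Eif4ebp2 had 6.31 and 6.29 (-0.02), and Eif4ebp3 had 6.29 and 6.45 (0.15). Eif4enif1, the shuttling protein 4E-T that carries eIF4E into the nucleus, was at 7.05 and 7.06 (0.01). As deposited, these 4 genes span -0.02 to 0.15 and lie within the spread between probe sets. Level-adjusted they span -0.37 to -0.07, below 0 but within that spread as well.

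Of the 4 genes of the eIF1 and eIF1A group, 3 had lower values in 2RH30, 1 of them by 2-fold or more. Eif1ax, the X-linked gene for eIF1A, which helps the ribosome scan for the start codon, had the lowest difference of the 48 genes, from 5.83 in 2RS30 to 4.03 in 2RH30 (-1.81, level-adjusted -1.67). Eif1ad, which encodes a protein with an eIF1A domain, was at 5.54 and 4.60 (-0.94, level-adjusted -0.85). Eif1a, a close relative of Eif1ax, read 5.42 and 5.25 (-0.17) in its brightest of 4 probe sets, and the others gave -0.77, -1.04 and 0.05. Eif1b, a paralog of the scanning factor eIF1, was the gene above 0, at 7.53 and 7.87 (0.34), and was at -0.08 level-adjusted. The median over these 4 genes was -0.55, and -0.52 level-adjusted.

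The factors of the later steps were mixed. Eif6, which keeps the large ribosomal subunit from joining too early, read 6.19 in 2RS30 against 8.17 in 2RH30, which differ by 1.98 (level-adjusted 1.63), the highest among members with 1 probe set. Eif5b, the GTPase of subunit joining, differed by 0.91 (level-adjusted 0.58) from 6.62 to 7.53, whereas its other probe sets gave 0.07 and -0.59. Eif5a, which despite its name helps elongation and bears the amino acid hypusine, was at 9.36 and 9.71 (0.36, level-adjusted -0.17). Its paralog Eif5a2 was dim at 4.14 and 4.09 (-0.05), and its other probe set read 4.79 and 2.77 (-2.03), the latter under the 5th percentile of that array. The promoters of Eif1ax and Eif6, the lowest and the highest member read by 1 probe set, are given in the same form as above, with matches to the same motifs in capitals.
Eif1ax (chrX:39322014-39322123, minus strand): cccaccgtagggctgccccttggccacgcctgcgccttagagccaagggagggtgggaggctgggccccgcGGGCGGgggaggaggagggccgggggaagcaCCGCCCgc
Eif6 (chr3:164791401-164791510, minus strand): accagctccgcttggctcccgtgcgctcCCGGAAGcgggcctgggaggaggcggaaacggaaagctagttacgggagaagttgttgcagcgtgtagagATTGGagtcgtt
The Eif1ax window held 2 GC boxes, in opposite orientation, and the Eif6 window an ETS motif and a CCAAT box.

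**Figure D3:**
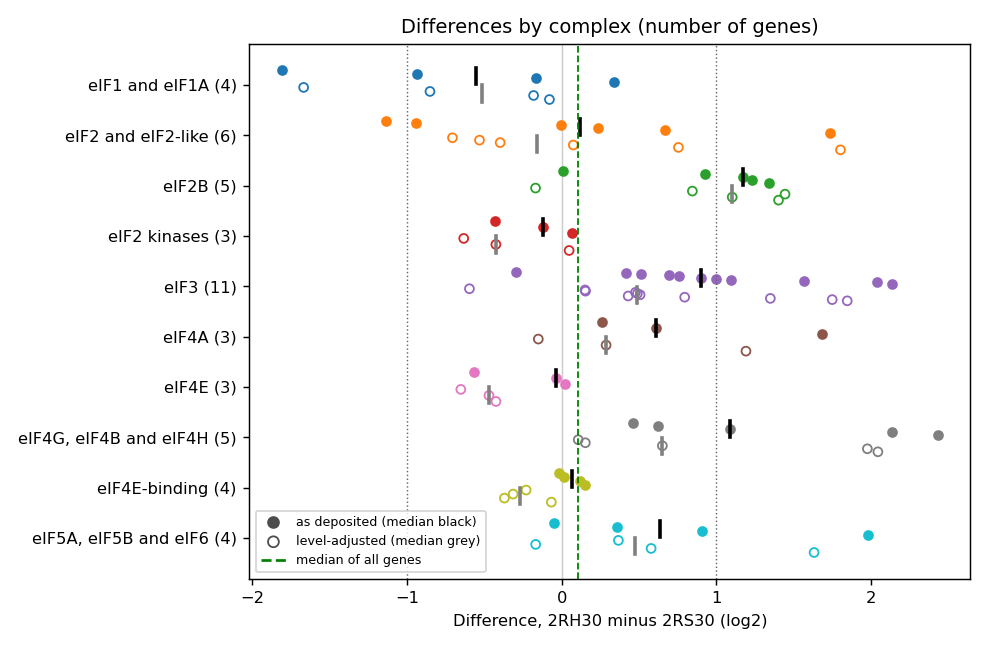
The 2RH30 minus 2RS30 value (log2, horizontal) for each initiation factor gene by complex (vertical axis, number of genes in brackets), as deposited (filled, median black) and level-adjusted (open, median grey). Dotted lines mark a 2-fold difference and the green line the median of all genes, 0.11. The medians of eIF2B (1.17) and of the eIF4G, eIF4B and eIF4H group (1.08) lie past 2-fold as deposited, and that of the eIF1 and eIF1A group lies at -0.55.

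Probe sets of the same gene often disagreed in size. Of the 48 genes 29 had 1 probe set and 19 had several, with up to 4. In 11 of the 19 every probe set was above 0, in 2 every one was below, and 6 had probe sets on both sides. The share on 1 side was 68.4%, against 48.7% among 4525 genes with several probe sets. A total of 12 of the 19 had at least 1 probe set past 2-fold, against 2045 of the 4525 genes, and in 1 (Eif3c) all of them were, in the same direction, against 120 of the 4525. The median range between probe sets of a gene was 0.996 for the initiation factors and 0.91 for all genes. The probe set with the highest mean was used for each gene, and over the 19 genes it put 6 at 2-fold or more higher and 0 lower, with a median of 0.69. The next brightest probe set put 4 higher and 2 lower, with a median of 0.27. RefSeq lists pseudogene copies for 24 of the 48 genes, including 9 of the 15 past 2-fold, and whether the probe sets read those copies was not examined.

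**Figure D4:**
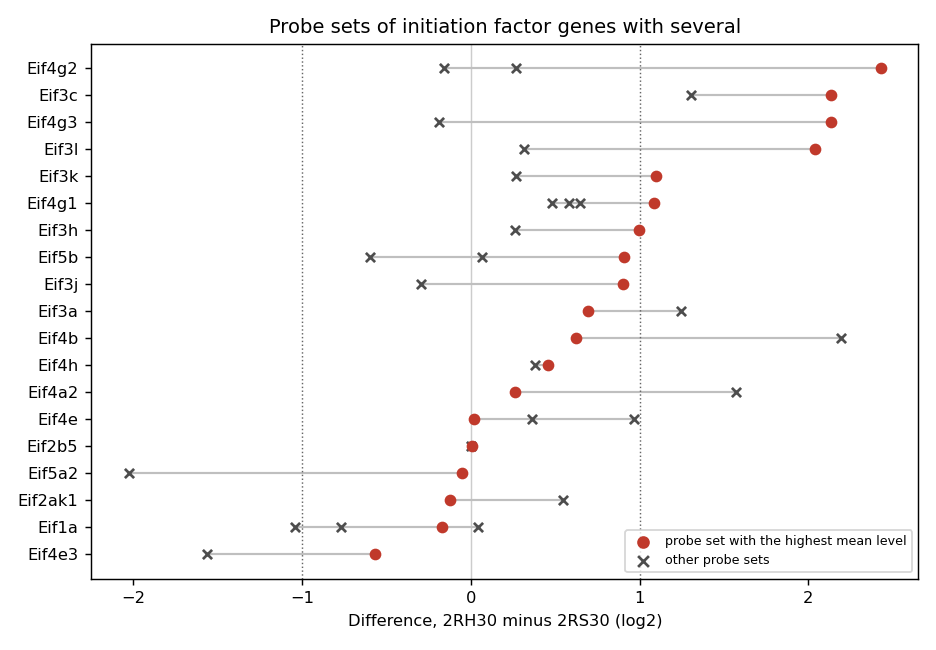
The 2RH30 minus 2RS30 value (log2, horizontal) in every probe set of the 19 initiation factor genes with several (vertical axis), the probe set with the highest mean level in red and the others as crosses. Dotted lines mark a 2-fold difference. In Eif3c all probe sets lie past 2-fold, and in Eif4g2 and Eif4g3 only the red one does.

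Other genes of translation were read from lists of regulators. Of 12 measured regulators and targets of the eIF2 pathway, 2 were 2-fold or more higher (16.7%, against 11.5% of all genes). None, or 0, were lower (against 9.62%), and the median was 0.65 (level-adjusted 0.31). Level-adjusted, 1 was higher and 1 lower, where the shares over all genes were 8.95% and 9.31%. Ppp1r15b, a subunit of the phosphatase that reverses eIF2 phosphorylation, read 3.27 in 2RS30 and 5.68 in 2RH30 (2.41, level-adjusted 2.72), but its 2RS30 value is among the lowest 5% of that array and its other probe set gave -0.14. Dnajc3, which encodes the kinase inhibitor p58IPK, was at 5.78 and 6.81 (1.03, level-adjusted 0.82). Chac1 and Trib3, targets of the ATF4 branch, had the lowest values, -0.82 and -0.07 (level-adjusted -1.01 and -0.21), and the 3 probe sets of Trib3 ran from -0.80 to 0.21. Atf4 itself differed by 0.66 (level-adjusted 0.33). Ddit3, Asns and Ppp1r15a, other genes of that branch, differed by 0.82, 0.69 and 0.64 (level-adjusted 0.56, 0.88 and 0.28, Asns dim).

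Of 20 measured genes of cap and poly(A) regulation and mTORC1, from 23 listed, 4 were 2-fold or more higher (20%, against 11.5% of all genes). A single gene, 1 or 5%, was lower (against 9.62%), and the median was 0.38 (level-adjusted 0.09). Level-adjusted, 3 were higher and 1 lower, against 8.95% and 9.31% of all genes. Mknk1, the kinase that phosphorylates eIF4E while bound to eIF4G, had the highest difference, from 5.76 to 7.42 (1.66, level-adjusted 1.40). Gigyf2, a partner of Eif4e2 in repression, followed with 1.52 (level-adjusted 1.22), although its 6 probe sets ran from -1.81 to 1.52. Larp1, a repressor of mRNAs under mTORC1 control, was at 7.92 and 6.87 (-1.05, level-adjusted -1.42), with up to 0.54 among its 4 probe sets, and Pabpc4, a poly(A)-binding protein, differed by -0.28 and by 0.62 in its other probe set. Mtor itself differed by 0.33 (level-adjusted 0.13) and its partner Rptor by 1.33 (level-adjusted 1.23). The 2RS30 value of Rptor, 4.92, is also that of unrelated genes such as Aass, Abo3 and Agk. Its size is therefore uncertain.

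The helpers of scanning, reinitiation and ribosome recycling were 5 of 6 listed, with a median of 0.36 (level-adjusted 0.19). Ncbp2, a subunit of the nuclear cap-binding complex, and the recycling factor Abce1 had the highest values (0.68 and 0.39, level-adjusted 0.29 and 0.19), and Ncbp1 and Denr differed by 0.02 and 0.36. Their probe sets disagreed, from -1.24 to 1.09 in Ncbp2, with 1.87 in the other probe set of Ncbp1 and -1.50 in that of Denr. Dhx29, a scanning helicase, was dim at -1.03 and was -0.59 level-adjusted. The 11 elongation and termination factors, measured as a contrast to initiation, had 1 gene 2-fold or more higher (9.09%, against 11.5% of all genes). They had 0 lower (against 9.62%) and a median of 0.13, which was -0.32 level-adjusted. Level-adjusted, 0 were higher and 0 lower. Eef2, which moves the ribosome along the mRNA, read 8.09 and 9.17 (1.08, level-adjusted 0.58), but its other probe set differed by 0.18. Eef1e1, a cofactor that takes its name from elongation, differed by 0.38. Eef1b2, an exchange factor for eEF1A, and Eef2k, the kinase of eEF2, had the lowest values that were not dim, -0.44 and -0.09 (level-adjusted -0.90 and -0.50). The 4 probe sets of Eef2k ran from -0.39 to 0.37.

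**Figure D5:**
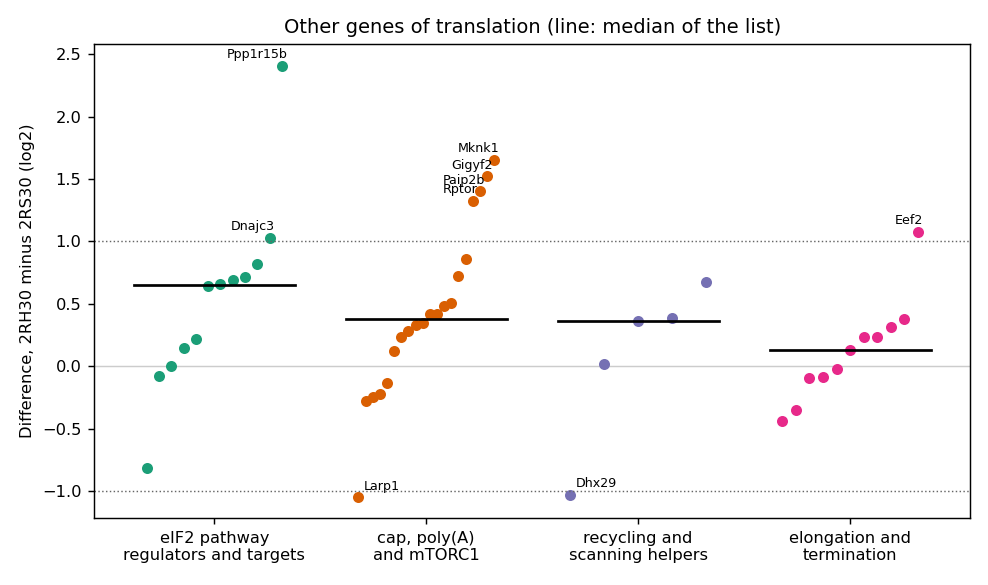
The 2RH30 minus 2RS30 value (log2, vertical) for each measured gene of the 4 other lists of translation genes (horizontal axis), ordered by value within a list, with the median of each list as a black line. Dotted lines mark a 2-fold difference and genes past it are named. The list medians lie at 0.65, 0.38, 0.36 and 0.13 from left to right.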

How the data were processed

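Adrenal medulla RNA was measured on 1 array per group (2RS30 and 2RH30), each a pool of 6 rats. The authors deposited 1 value per probe set and array, read as log2 from its range; the submitters' processing notes list Affymetrix Expression Console (version not stated), the study's methods name GCRMA for its own analysis and call the deposited data quantile-normalized, and how probes were summarized was not given in the sources used here. The 2 arrays differ in spread (SD 1.28 in 2RS30 and 1.57 in 2RH30), so the values used here are not quantile-normalized to each other. The other arrays of the study were not analysed here.
Of 31099 probe sets, 57 controls were set aside. Of the others, 20826 named 1 gene, 436 several and 9780 none in the platform annotation, and symbols were updated by gene number through RefSeq (GRCr8, 20758 matched). The lowess adjustment used a fraction of 0.3 and 3 iterations over 31042 probe sets. No test was fitted. Differences were counted at 2-fold, as in the study's methods, and the adjustment was tested on simulated data. The spread between probe sets is a pooled SD over 2539 genes with several probe sets that were not dim.
The initiation factor genes and the gene lists were chosen with earlier results of these data known. Values are printed for members 2-fold or more different, for the highest and lowest of each complex of 3 or more genes, and for a fixed set of subunits, kinases, cap-binding genes and inhibitors. Of the other lists, up to 2 highest and 2 lowest genes that were not dim are named, and further genes named (Mtor, Rptor, Dhx29, Atf4, Ddit3, Asns and Ppp1r15a and the other probe sets) were chosen after their values were seen. Alternatives were median centring, quantile normalization, lowess, leaving out dim genes, averaging probe sets, the median of those not dim, excluding probe sets of less specific design, unrevised symbols and other thresholds; the next brightest probe set was an alternative chosen after seeing the data. The number of arrays limits the precision. Python 3.11.15, pandas 2.3.3, numpy 2.4.6, statsmodels 0.14.6 and matplotlib 3.10.9 were used.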

Additional observations from a re-analysis of the deposited data

How the results depend on the processing

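Against 13 genes 2-fold or more higher, 2 lower and a median of 0.44 as deposited, quantile normalization gave 11, 1 and 0.15 and lowess 11, 1 and 0.15. Leaving out dim genes gave 1 lower, the median over probe sets that are not dim 1, and the mean over probe sets 4. Genes under the array median on a single array stay in when dim genes are left out. A 1.5-fold threshold gave 22 higher and 4 lower, and a 3-fold threshold 7 and 1, by construction. Over the 19 genes with several probe sets, an alternative chosen after seeing the data, the brightest probe set gave 6 higher, 0 lower and a median of 0.69, and the next brightest 4, 2 and 0.27. Beyond construction, the cause was not tested. The other alternatives moved the counts by no more than 1.5 times and the median by less than the spread between probe sets divided by the square root of the number of genes. By that measure 55 of the medians of complexes under the alternatives stayed and 5 moved, all of eIF3 or of the eIF4G, eIF4B and eIF4H group and all to values of 0.49 or more. Of single genes 187 values moved by less than the spread between probe sets and 5 by more, all on averaging: Eif4b to 1.41, Eif4g2 to 0.85, Eif4g3 to 0.97, Eif5a2 to -1.04 and Eif5b to 0.13. Under median centring, quantile normalization, lowess and averaging of probe sets, no member value of 2-fold or more changed sign. With the next brightest probe set Eif4g3 went from 2.13 to -0.18. No paired analysis was possible because the groups hold a single array each, and no replicate could be left out. Pseudocounts do not apply to log values. Signal over background is not given, which leaves values of dim probe sets without a bound.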

Other observations

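Probe sets annotated to several genes were left out of the counts, and 5 of them include an initiation factor gene. The probe set shared by Eif3e, a subunit of eIF3, and the copy Eif3el1 read 6.43 in 2RS30 against 7.27 in 2RH30, which differ by 0.84 (level-adjusted 0.54). Eif5, the GTPase-activating protein of eIF2, shares 3 probe sets with the pseudogene Eif5-ps1, and they differed by 1.25, 0.65 and 0.14 (level-adjusted 0.996, 0.38 and -0.30). The probe set shared by Eif2s3 and Eif2s3y read 7.48 and 8.14, a difference of 0.66 (level-adjusted 0.22), whereas the probe sets of Eif2s3 and Eif2s3y alone differed by 0.23 and -1.14. All 5 shared probe sets were above 0 as deposited. Eif1, Eif1l1, Eif3g, Eif4a1l, Eif4e1b and Eif4g2l1 had no probe set annotated to 1 gene and have no value here.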
